A study of Polyandrocarpa zorritensis and Clavelina lepadiformis with 36 samples.

Results

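The AP-1 and immediate early factors described here are 6 ortholog pairs, JUN_HUMAN (jun), Q4H3J9_CIOIN (the tunicate fos), ATF7_HUMAN (ATF7), MAFA_HUMAN (MAFA), NR4A3_HUMAN (NR4A3) and NPAS4_HUMAN (NPAS4), out of 4424 pairs of transcripts deposited for the tunicates *Polyandrocarpa zorritensis* and *Clavelina lepadiformis*. A pair was taken when either of its transcripts carried one of these entry names, and every transcript of the same Trinity gene (the assembler's grouping of isoforms) was then collected. This gave 6 of 22465 genes and 8 of 27938 transcripts of *P. zorritensis*, and 6 of 13654 genes and 10 of 18610 transcripts of *C. lepadiformis*. In 5 of the 12 genes there was more than 1 isoform. Levels below are sums over the isoforms of a gene. Names come from the best protein match of a transcript, and the *C. lepadiformis* transcripts of the MAFA and ATF7 pairs carry *Ciona* names of their own, Q4H394_CIOIN and Q4H3W1_CIOIN.

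RNA was sequenced from zooids (the feeding adults), stolons, pre-buds, dormant structures (spherules in *P. zorritensis*, winter buds in *C. lepadiformis*) and germinating dormant structures, with 3 samples per stage and species except 6 of germinating tissue, 3 kept at 18 °C and 3 at 24 °C for 48 h. Each sample pooled several specimens. Dormant spherules of *P. zorritensis* were frozen in the field in spring, while its zooids, stolons and buds grew in the laboratory from the same rope, so in this species dormancy and field collection cannot be told apart. All *C. lepadiformis* material came from 1 laboratory colony.

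AP-1 is a dimer of basic leucine zipper (bZIP) proteins, in the classical case a jun and a fos subunit, and ATF and Maf proteins of the same superfamily can join such dimers. Jun, fos, NR4A and NPAS4 genes are immediate early genes in vertebrates: their transcripts appear quickly after a stimulus without new protein synthesis. AP-1 is known from wound responses, stress and regeneration across animals.

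Each value is a stage mean deposited by the authors, in TPM (transcript abundance corrected for length and depth) after TMM scaling across the libraries of a species, called scaled TPM. There is 1 mean per stage, so no value has an error, no difference between stages was tested, and it is unknown whether stages that lie next to each other in level differ by more than their replicates do. A gene was counted as higher or lower when 2 stage sums differed at least 2-fold and the higher one reached 5 scaled TPM. Log2 differences are of scaled TPM plus 1, which understates the change of low genes. The sums of all values of a stage ran between 687867 (zooids) and 1570747 (spherules) in *P. zorritensis*, and between 741785 (stolons) and 1274782 (germinating) in *C. lepadiformis*. The median log2 ratio of a transcript in dormant *P. zorritensis* to its mean over the stages was -0.19, and every other stage of either species lay within 0.1 of 0. For 13 zooid markers of cilia and digestion, 12 pairs were found, of which 11 in *P. zorritensis* and 10 in *C. lepadiformis* were highest in zooids. These markers were chosen with earlier results of these data known, so they are no independent check of the zooid label. In whole tissue, fewer cells of a type and less RNA per cell cannot be told apart.

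In *P. zorritensis*, both jun and fos were highest in dormant spherules, jun by only 1.30-fold over stolons. In *C. lepadiformis*, both were highest in stolons, and winter buds still exceeded zooids. The jun protein is an AP-1 subunit that can also pair with itself. Its gene in *P. zorritensis* had 110.0 scaled TPM in zooids, 293 in stolons, 155 in pre-buds, 381 in dormant and 92.8 in germinating spherules. Spherules therefore stood 3.47-fold above zooids, 2.45-fold above pre-buds and 1.30-fold above stolons, and germinating tissue was at 0.243 of the dormant level. The stage sum was 1570747 in spherules against 806444 in stolons. Whether jun would stay highest in spherules without TMM scaling was not tested. In *C. lepadiformis*, jun had 28.2 scaled TPM in zooids, 207 in stolons, 98.1 in pre-buds, 174 in winter buds and 156 in germinating buds. Zooids alone were low, and winter buds were 6.18-fold above them. Winter buds were at 0.841 of the stolon level, and germinating buds at 0.895 of the dormant level. In scaled TPM, the low level of germinating spherules thus had no counterpart of that size in *C. lepadiformis*. This difference between the species was not tested. From dormant to germinating tissue, the stage sums fell in *P. zorritensis* (1570747 to 1039981) and rose in *C. lepadiformis* (807063 to 1274782). How much of the difference between the species comes from the scaling was not tested either.

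The fos gene, which needs a partner such as jun to bind DNA, had the widest range of the 6. In *P. zorritensis* it had 18.8 scaled TPM in zooids, 77.6 in stolons, 37.5 in pre-buds, 294 in dormant spherules and 9.82 in germinating spherules. The dormant mean was 15.6-fold that of zooids, 7.85-fold that of pre-buds and 3.79-fold that of stolons. Germinating spherules had 0.0334 of the dormant level, a 30.0-fold lower mean, and only 16 of 12564 tested genes had a lower log2 difference than the -4.77 of fos. In *C. lepadiformis*, fos had 9.81 scaled TPM in zooids, 100.3 in stolons, 66.9 in pre-buds, 36.4 in winter buds and 11.6 in germinating buds. Winter buds were 3.71-fold above zooids but at 0.363 of stolons, a log2 difference of -1.44 with 220 of 8844 tested genes lower. Both species shared the step at germination, where fos of *C. lepadiformis* was at 0.317 of its dormant level and germinating buds lay within 1.18-fold of zooids.

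**Figure D1:**
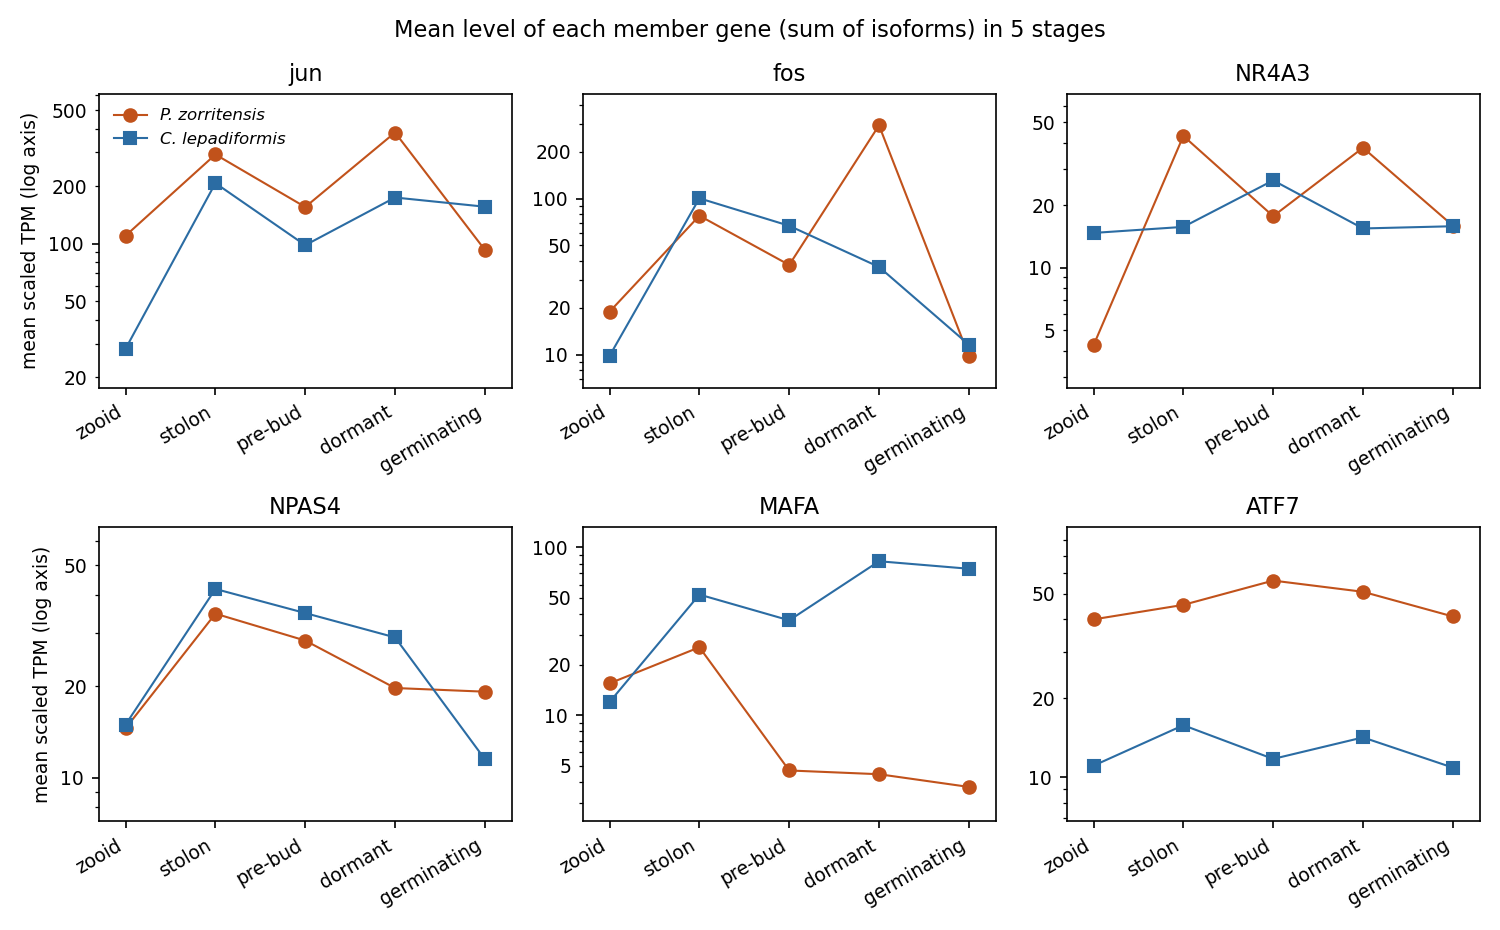
Mean level (scaled TPM, log axis) of each of the 6 genes, summed over isoforms, in the 5 stages of *P. zorritensis* (circles) and *C. lepadiformis* (squares); each point is 1 deposited mean and lines only join the points. For fos, dormant spherules (294 scaled TPM) lie well above the other stages of *P. zorritensis*, for jun they lie close to stolons (381 and 293), and in *C. lepadiformis* fos is highest in stolons (100.3).

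Because both genes are measured per length, their levels can be set against each other within a species. The ratio of fos to jun was 0.171 in zooids, 0.265 in stolons, 0.241 in pre-buds, 0.772 in dormant spherules and 0.106 in germinating spherules of *P. zorritensis*. In *C. lepadiformis* it was 0.348 in zooids, 0.484 in stolons, 0.681 in pre-buds, 0.209 in winter buds and 0.0741 in germinating buds. In both species jun exceeded fos in all 5 stages, and germinating tissue had the lowest ratio. The highest ratio was that of spherules in *P. zorritensis* and of pre-buds in *C. lepadiformis*.

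**Figure D2:**
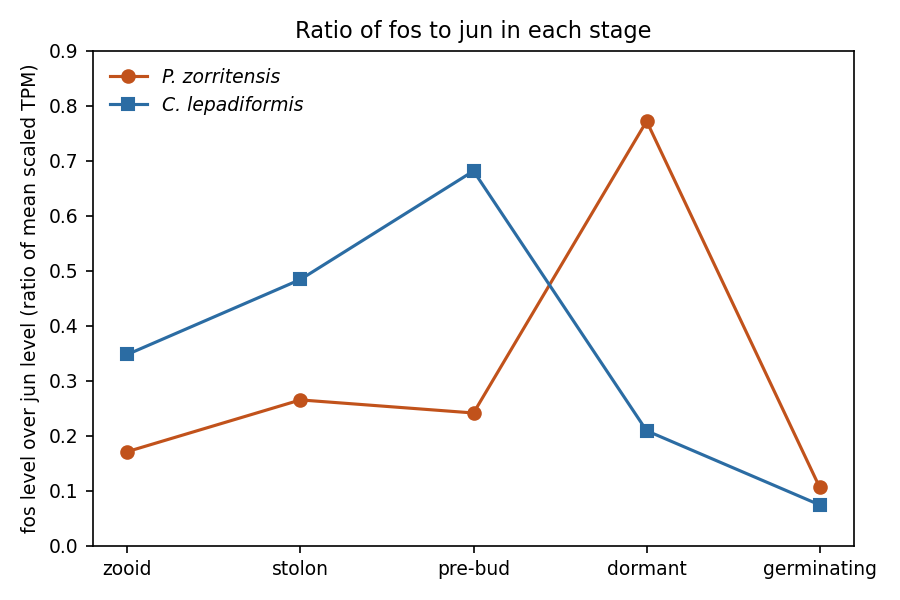
Ratio of the fos level to the jun level (both mean scaled TPM) in each stage of *P. zorritensis* (circles) and *C. lepadiformis* (squares). The ratio reaches 0.772 in dormant spherules and 0.681 in *C. lepadiformis* pre-buds, and is lowest in germinating tissue of both species (0.106 and 0.0741).

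MAFA, a large Maf factor known in vertebrates from insulin-producing cells, had opposite patterns in the species. In *P. zorritensis* it had 15.5 scaled TPM in zooids, 25.4 in stolons, 4.69 in pre-buds, 4.45 in dormant spherules and 3.74 in germinating spherules. Spherules were thus at 0.288 of zooids and 0.175 of stolons. In *C. lepadiformis* the pair had 12.0 scaled TPM in zooids, 52.3 in stolons, 36.8 in pre-buds, 82.7 in winter buds and 74.6 in germinating buds. Winter buds were 6.90-fold above zooids, 2.25-fold above pre-buds and 1.58-fold above stolons, and this difference between the species was likewise not tested. ATF7, a bZIP factor that binds cyclic AMP response elements and can pair with jun, stayed in a narrow band. It had 40.0 scaled TPM in zooids, 45.4 in stolons, 56.2 in pre-buds, 50.9 in dormant spherules and 41.0 in germinating spherules of *P. zorritensis*. The *C. lepadiformis* ATF7 gene had 11.1 in zooids, 15.8 in stolons, 11.8 in pre-buds, 14.2 in winter buds and 10.9 in germinating buds. Its highest stage was 1.41-fold and 1.45-fold the lowest in *P. zorritensis* and *C. lepadiformis*, and no comparison passed 2-fold.

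NR4A3, an orphan nuclear receptor of the NR4A group, was high in both stolons and spherules of *P. zorritensis*. It had 4.24 scaled TPM in zooids, 43.0 in stolons, 17.7 in pre-buds, 37.8 in dormant spherules and 15.9 in germinating spherules. Spherules were 8.90-fold above zooids and 2.13-fold above pre-buds, at 0.878 of stolons, and germinating tissue was at 0.422 of spherules. In *C. lepadiformis* the gene had 14.7 scaled TPM in zooids, 15.7 in stolons, 26.3 in pre-buds, 15.5 in winter buds and 15.8 in germinating buds. Winter buds were 1.05-fold zooids, and only pre-buds stood apart. The sum hides its isoforms, described below. NPAS4, a bHLH-PAS factor known in vertebrates from neurons after activity, was highest in stolons of both species. It had 14.5 scaled TPM in zooids, 34.7 in stolons, 28.3 in pre-buds, 19.7 in dormant spherules and 19.2 in germinating spherules of *P. zorritensis*. In *C. lepadiformis* it had 14.96 in zooids, 41.8 in stolons, 34.8 in pre-buds, 29.0 in winter buds and 11.5 in germinating buds. Dormant tissue stood 1.36-fold and 1.94-fold above zooids in *P. zorritensis* and *C. lepadiformis*. Germinating buds of *C. lepadiformis* were at 0.397 of winter buds, against 0.973 of spherules in *P. zorritensis*.

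Counted together, the members were compared with all genes under the same rule. Dormant spherules were above zooids in 3 of 6 (jun, fos, NR4A3; 20.5% of all tested genes) and below in 1 (MAFA; 30.4%). Against stolons, 1 was higher (fos; 20.5%) and 1 lower (MAFA; 24.5%). Against pre-buds, 3 of the 5 that reached the minimum were higher (jun, fos, NR4A3; 18.3%) and 0 lower (18%). In germinating against dormant spherules, 0 of 5 were higher (14.6%) and 3 lower (jun, fos, NR4A3; 15.8%). MAFA was under 5 scaled TPM in these last pairs of stages.

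In *C. lepadiformis*, winter buds were above zooids in 3 of 6 (jun, fos, MAFA; 16.7% of all tested genes) and below in 0 (24.7%). Against stolons, 0 were higher (4.12%) and 1 lower (fos; 5.89%). Against pre-buds, 1 was higher (MAFA; 7.87%) and 0 lower (9.02%). In germinating buds 0 were above winter buds (9.25%) and 2 below (fos, NPAS4; 7.89%). The 2 genes past 2-fold above zooids in both species were jun and fos, and fos alone was past 2-fold below dormant tissue at germination in both. The share of all pairs past 2-fold in both species was not computed, so nothing is read from this overlap. All 6 pairs are in a table that lists only pairs the authors called in some stage. Among the genes of that table, 13.9% in *P. zorritensis* and 10.4% in *C. lepadiformis* were higher in dormant tissue than in zooids, and 7.20% and 6.69% lower in germinating than in dormant tissue.

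**Figure D3:**
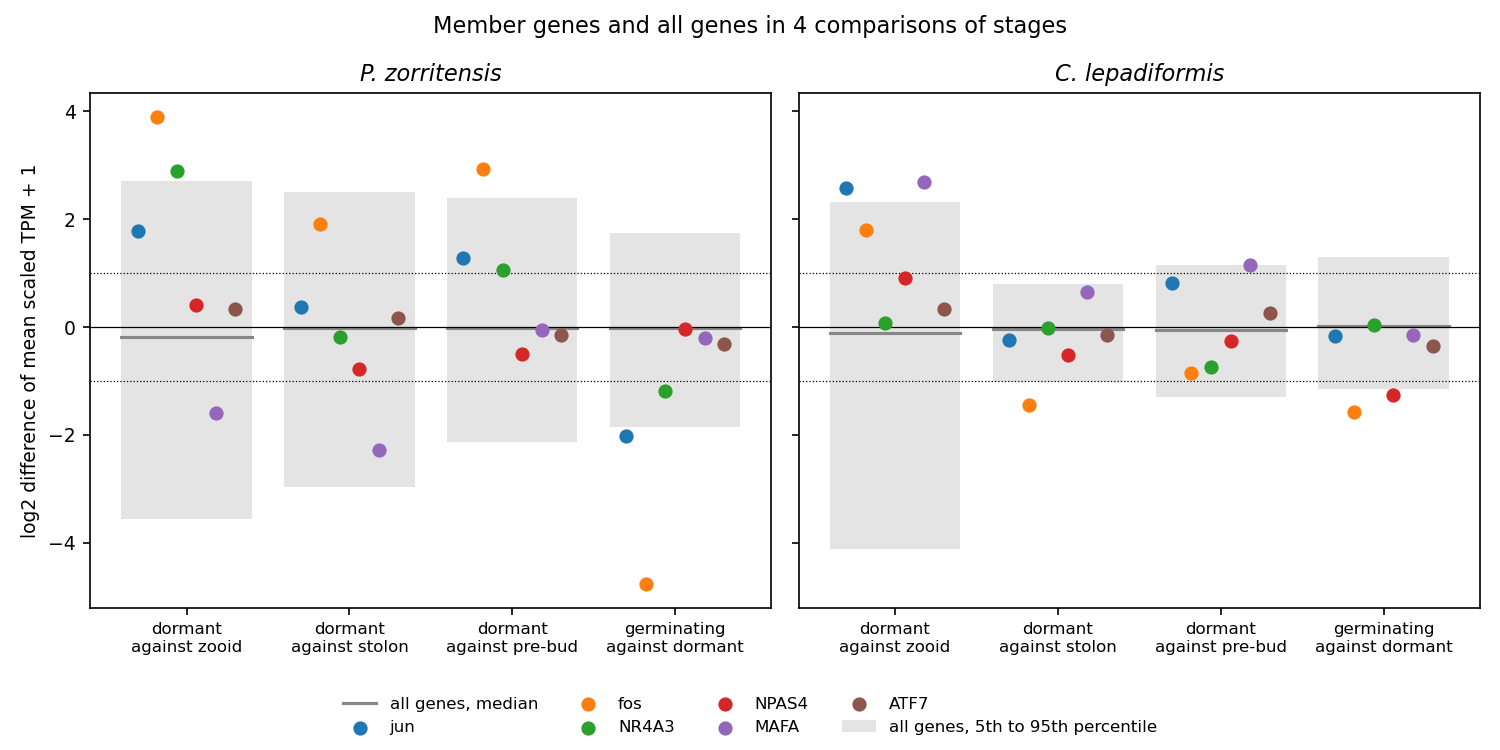
Log2 difference of mean scaled TPM plus 1 for the 6 genes (points) in 4 comparisons of stages in *P. zorritensis* (left) and *C. lepadiformis* (right), over grey bars from the 5th to the 95th percentile of all tested genes with their median; dotted lines mark 2-fold. The fos point lies at 3.90 for dormant against zooid and at -4.77 for germinating against dormant in *P. zorritensis*.

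The stage with the highest mean was the stolon for 3 of 6 genes of *P. zorritensis* (NPAS4, NR4A3, MAFA; 21.3% of all genes) and for 4 of 6 of *C. lepadiformis* (jun, fos, NPAS4, ATF7; 16.2%). It was the dormant stage for 2 of *P. zorritensis* (jun, fos; 24%) and 1 of *C. lepadiformis* (MAFA; 10.4%), and the pre-bud for ATF7 in *P. zorritensis* (11%) and NR4A3 in *C. lepadiformis* (15.8%). No member was highest in zooids, the stage where 29.3% and 35.9% of genes of *P. zorritensis* and *C. lepadiformis* were highest. Between stolons and zooids, jun was 2.66-fold and 7.35-fold higher and fos 4.12-fold and 10.2-fold higher in stolons of *P. zorritensis* and *C. lepadiformis*. The median log2 difference of the members for dormant against zooid was 1.10 in *P. zorritensis*, against -0.18 over all genes, and 1.35 in *C. lepadiformis*, against -0.11. For germinating against dormant it was -0.75 against -0.01 in *P. zorritensis*, and -0.26 against 0.01 in *C. lepadiformis*. For dormant against stolon, the members' median was -0.01 in *P. zorritensis*, against -0.02 over all genes, and -0.20 in *C. lepadiformis*, against -0.03. These medians cover members that went both ways, such as fos and MAFA in *P. zorritensis*.

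The isoforms of fos had like profiles. There were 2 in *C. lepadiformis*: TRINITY_DN3286_c0_g1_i7 of the pair table made up 68.7% to 78.8% of the sum, with 6.74 scaled TPM in zooids, 70.8 in stolons, 50.2 in pre-buds, 25.1 in winter buds and 9.11 in germinating buds. Isoform i6 had 3.07, 29.5, 16.6, 11.3 and 2.46 in the same order of stages, so both were highest in stolons. For ATF7 of *P. zorritensis*, the isoform of the pair table (i5) was the minor one, with 6.21 to 9.44 scaled TPM beside 33.5 to 46.7 for i3, and both were highest in pre-buds. The 2 ATF7 isoforms of *C. lepadiformis* ran between 6.83 and 10.4 (i1) and between 2.89 and 6.00 (i2), highest in stolons and in winter buds.

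The isoforms of NR4A3 differed in profile. In *P. zorritensis*, isoform i6 had 3.06 scaled TPM in zooids, 37.3 in stolons, 11.6 in pre-buds, 29.9 in dormant spherules and 11.2 in germinating spherules. Isoform i12 had 1.18, 5.74, 6.06, 7.83 and 4.72 in the same order, and was highest in spherules. In *C. lepadiformis*, isoform i3 held 50.6% to 93.9% of the sum and varied by a smaller fold across stages than i1 and i2. It had 12.5 scaled TPM in zooids, 8.34 in stolons, 13.3 in pre-buds, 10.9 in winter buds and 14.9 in germinating buds. Isoform i2, the one in the pair table, had 1.17, 3.13, 7.76, 1.87 and 0.553 in that order, and i1 had 1.00, 4.26, 5.23, 2.67 and 0.414. The smaller isoforms were thus highest in pre-buds and lowest in germinating buds, whereas i3 was highest in germinating buds.

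**Figure D4:**
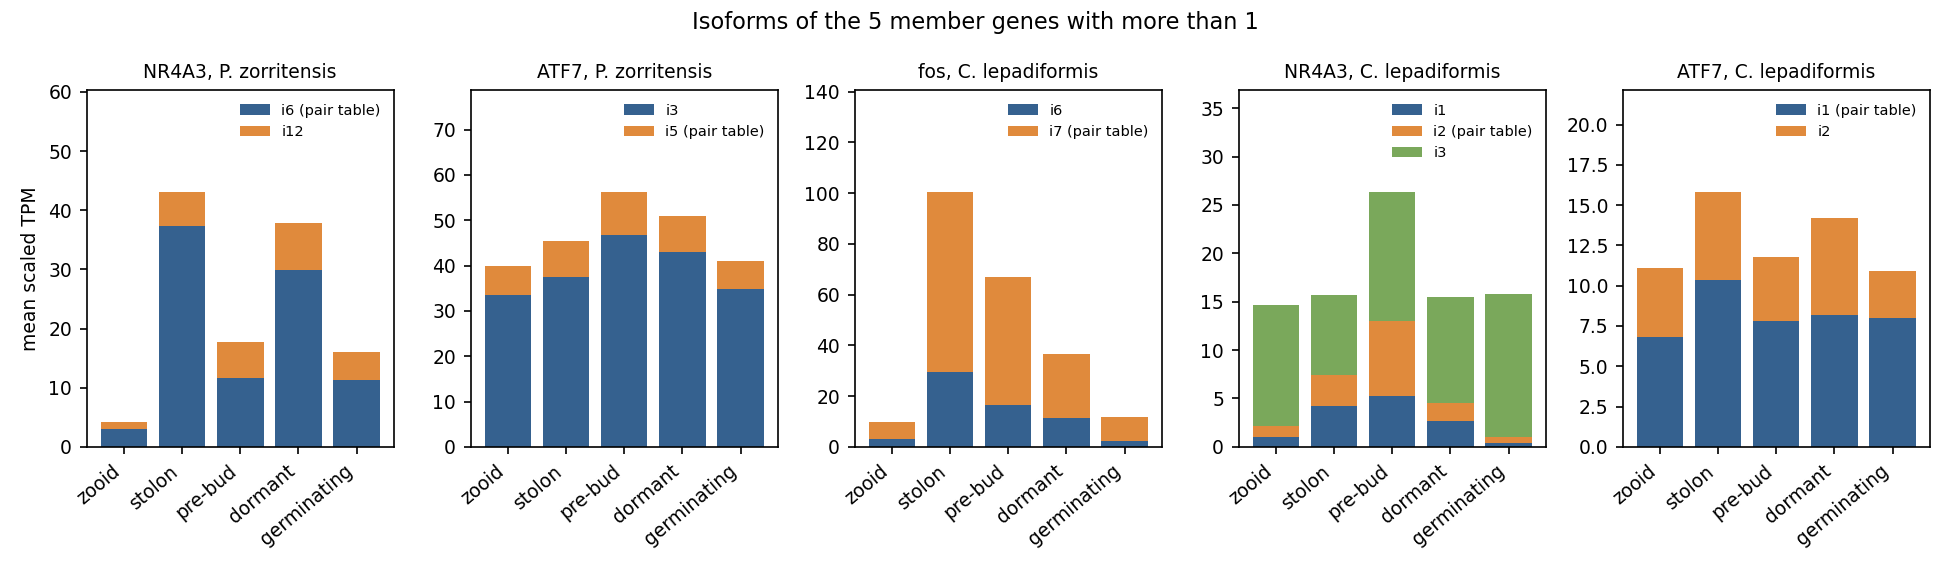
Mean scaled TPM of each isoform, stacked, in the 5 stages for the 5 genes with more than 1 isoform; the isoform of the pair table is marked. In *C. lepadiformis* NR4A3, i3 (8.34 to 14.9 scaled TPM) makes up most of each bar, while i1 and i2 together are largest in pre-buds.

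The study's gene tree for NR4A placed another *C. lepadiformis* transcript there, TRINITY_DN43_c0_g2_i6, which is not in the pair table and is no member. It had 9.52 scaled TPM in zooids, 114 in stolons, 25.0 in pre-buds, 9.27 in winter buds and 1.95 in germinating buds. Stolons exceeded winter buds 12.3-fold, and winter buds were at 0.974 of zooids. The other isoform of that gene, i11, is in the pair table without a name. It had 5.15 scaled TPM in zooids, 0.803 in stolons, 2.59 in pre-buds, 0.5 in winter buds and 1.13 in germinating buds. Neither *C. lepadiformis* gene thus had the high dormant level, relative to zooids, of NR4A3 in *P. zorritensis*.

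Related genes were taken from 4 lists of 153 entries, for which 20 pairs were found. The lists held bZIP factors, the MAP kinase cascade acting on AP-1, other immediate early genes, and PAS factors with coactivators and nuclear receptor partners. In dormant spherules against zooids, 3 of 19 tested were higher and 2 lower, and in winter buds against zooids 3 of 18 were higher and 1 lower. In germinating against dormant tissue, 1 of 18 was higher and 3 lower in *P. zorritensis*, and 0 of 18 higher and 2 lower in *C. lepadiformis*. Of all genes, 20.5% were higher and 30.4% lower in spherules than in zooids, and 16.7% higher and 24.7% lower in winter buds than in zooids. At germination, 14.6% of all genes were higher and 15.8% lower in *P. zorritensis*, and 9.25% higher and 7.89% lower in *C. lepadiformis*. With so few pairs, nothing is read from these counts.

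Among 5 bZIP pairs, 2 were higher in dormant spherules than in zooids (20.5% of all genes) and 1 in winter buds than in zooids (16.7%). BACH2, a repressor that in mammals pairs with small Maf proteins, had 21.4 scaled TPM in zooids, 51.0 in stolons, 35.8 in pre-buds, 129 in dormant spherules and 39.6 in germinating spherules of *P. zorritensis*. Its *C. lepadiformis* partner, named BACH1, ran only between 11.0 and 13.9. HLF, a PAR-type bZIP factor, had 329 in dormant spherules against 132 in zooids, and 47.5 in winter buds against 27.6 in zooids. In *P. zorritensis*, CR3L2 was highest in pre-buds (30.2 in spherules against 75.6 in pre-buds) and CR3L4 in stolons (14.2 in spherules against 34.2 in stolons). Both are membrane-bound bZIP factors, and CR3L2 was the pair past 2-fold in *C. lepadiformis*, with 91.3 in winter buds against 41.2 in zooids.

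Of 9 MAP kinase pairs, 0 of the 8 tested in *P. zorritensis* and 0 of 7 in *C. lepadiformis* were higher in dormant tissue than in zooids, and 1 was lower, in *P. zorritensis*, beside the same shares of all genes (20.5% and 16.7% higher, 30.4% and 24.7% lower). This was KS6A3, a kinase downstream of ERK, with 9.83 scaled TPM in dormant spherules and 24.5 to 27.8 in the other stages. DUS16, a phosphatase that acts on MAP kinases, had 72.6 in germinating spherules against 185 in dormant spherules, and its *C. lepadiformis* partner, DUS8, had 10.5 in germinating buds against 21.1 in winter buds. M3K9, a kinase at the top of the cascade, had 4.47 in dormant spherules against 6.88 in zooids, but 15.5 in winter buds against 10.0 in zooids of *C. lepadiformis*. M3K20, another such kinase, stayed under the minimum of 5 in *P. zorritensis* (1.02 in spherules against 3.01 in zooids). M3K1, named after its values were seen, had 26.5 in spherules, against 24.9 in stolons and 14.3 in zooids. Its *C. lepadiformis* partner stayed under the minimum, with 3.52 in winter buds against 4.47 in zooids. MP2K4 and MK07, also named after their values were seen, were lowest in spherules among the stages of *P. zorritensis* (10.6 and 3.16).

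The other immediate early genes gave 2 pairs of 38 entries. CCN1, a secreted matrix protein that is an immediate early product, was highest in zooids of *P. zorritensis* (at most 0.217 scaled TPM in the other stages, against 10.6 in zooids), while its partner in *C. lepadiformis*, CCN2, had 12.1 in winter buds, against 92.5 in stolons and 34.5 in zooids. ELK3, a factor of the serum response complex, had 8.88 in spherules against 6.67 in zooids, and 32.9 in winter buds against 12.6 in zooids. In the list with PAS factors, HIF1A, of the hypoxia response, was the one pair past 2-fold above zooids in both species. It had 1251 in spherules against 416 in zooids, and 361 in winter buds against 123 in zooids. NPAS3 had 19.1 in spherules against 15.6 in zooids, and 22.8 in winter buds against 18.1. The CBP and AHR pairs fell in 1 Trinity gene of *P. zorritensis*. Its sum (41.0 in spherules, 37.8 in zooids) was not split by transcript, and it counts for both pairs.

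**Figure D5:**
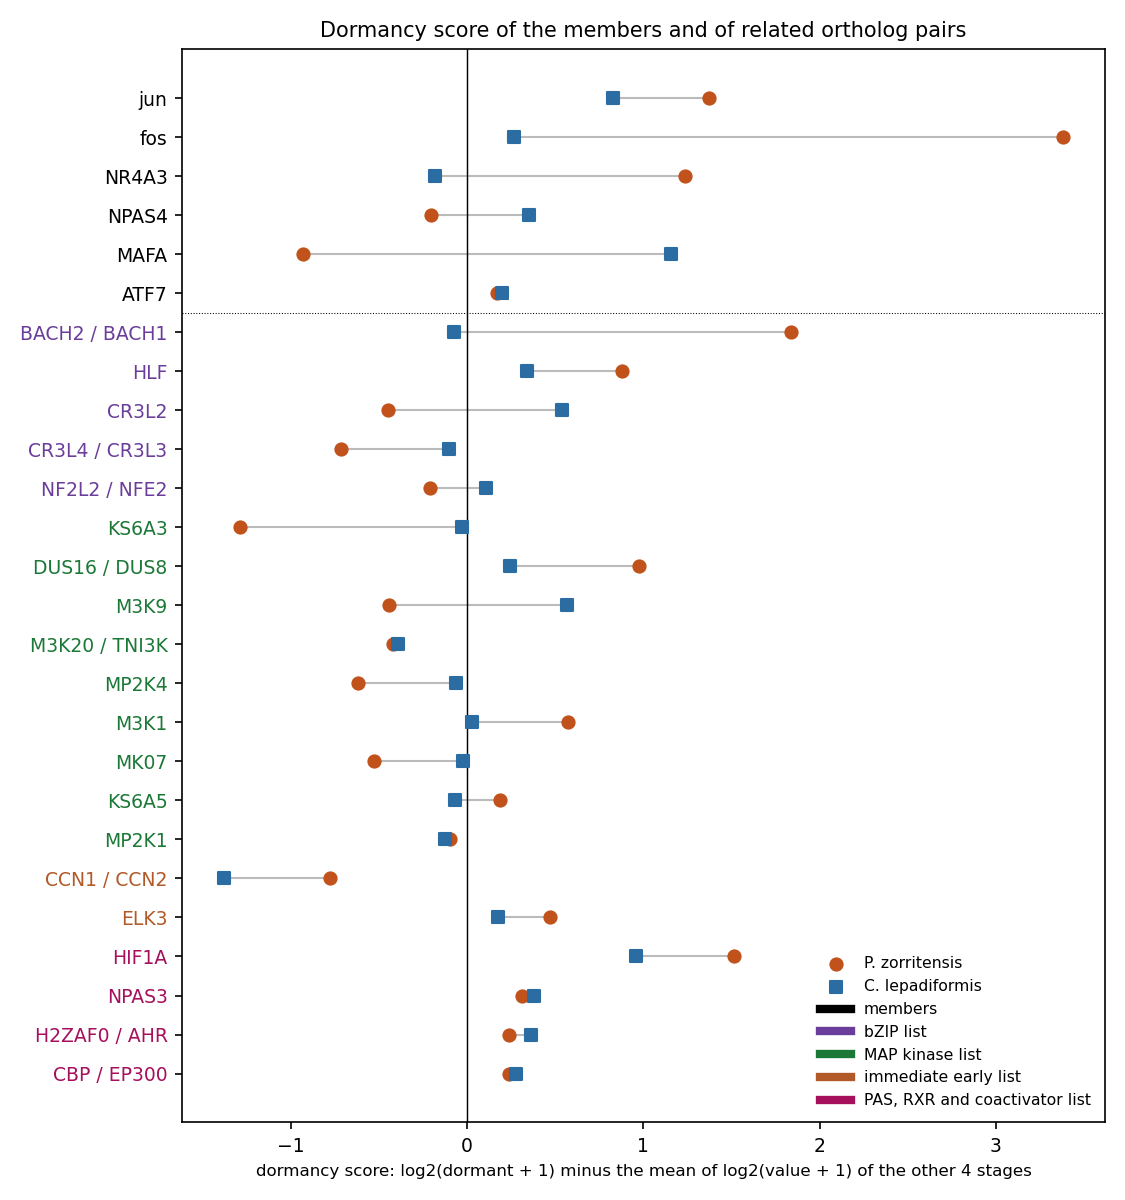
Dormancy score, the log2(mean + 1) of the dormant stage less its average across the remaining 4 stages, for the 6 genes (above the dotted line) and 20 related pairs, coloured by list, in *P. zorritensis* (circles) and *C. lepadiformis* (squares). The score of fos is 3.38 in *P. zorritensis* and 0.27 in *C. lepadiformis*, MAFA has -0.93 and 1.16, and HIF1A has 1.51 and 0.96.

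Genes with the most similar pattern were sought among 3334 annotated pair-table genes of *P. zorritensis* and 3620 of *C. lepadiformis*, by the root mean square difference of log2 profiles over the 5 stage means. The 3 nearest to jun in *P. zorritensis* were F6SS18_CIOIN (0.21), F6X728_CIOIN (0.23) and RGS4_HUMAN (0.27). RGS4, a regulator of G protein signaling, was also nearest to fos (0.84), followed by RN123_HUMAN (0.91) and jun itself (0.91), so no gene was as close to fos as the nearest ones were to jun. Counted from jun, fos came 1171st, behind NR4A3 (0.67), NPAS4 (0.70) and ATF7 (0.71). This distance grows with the size of the changes as well as with their shape. Jun and fos had the same order of the 5 stages in *P. zorritensis*, but ranges of 4.11-fold and 30.0-fold. ATF7, with another order, ranged 1.41-fold. RGS4 had 19.6 scaled TPM in zooids, 47.2 in stolons, 37.9 in pre-buds, 104 in dormant spherules and 20.9 in germinating spherules. In *C. lepadiformis*, H2XPT1_CIOIN, E4X0N6_OIKDI and E4XR51_OIKDI were nearest to jun (0.13 to 0.14), MAFA came 31st in likeness (0.34) and fos 1350th (1.08). H2YRQ7_CIOSA (0.19), KLHL9_HUMAN (0.27) and MFAP4_HUMAN (0.27) were nearest to fos, NPAS4 came 21st (0.64), and jun came 414th (1.08). The distance between jun and fos was thus 0.91 in *P. zorritensis* and 1.08 in *C. lepadiformis*.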

How the data were processed

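The authors assembled transcripts of each species de novo with Trinity from all stages pooled, removed those below 5 TPM, and estimated abundances with Kallisto. The deposited signal values are TPM scaled by TMM factors and averaged by the authors over the replicates of a stage, the 18 °C and 24 °C germinating samples together. Collapsing of similar transcripts and the TPM filter can remove isoforms, so only isoforms kept by the authors were summed. Depth per sample is unknown, and values per replicate were not analysed here. Columns of the pair table hold the authors' calls, naming for each transcript the stages of raised or lowered expression, and were not used. Each species was normalized on its own, so levels were compared within species only. All 10 stage columns were used, and 0 columns of per-sample values were left unmapped.

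Isoforms were summed per Trinity gene with Python 3.11.15, numpy 2.4.6, pandas 2.3.3 and matplotlib 3.10.9. Scripts were tested on simulated data. Genes named are all members with all their isoforms, up to 4 pairs per list with the largest score over both species, and the 3 annotated genes nearest in pattern to jun and to fos. M3K1, MP2K4 and MK07 were named in addition, after their values were seen. Members and lists were chosen with earlier results of these data known. Alternatives were pseudocounts of 0.1 and 5, other minimums and thresholds, rescaled stages, the transcript of the pair table alone, isoforms with a mean of at least 1, and a score without zooids. The whole Trinity component and the transcript of the NR4A tree were added after seeing the data.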

Additional observations from a re-analysis of the deposited data

How the results depend on the processing

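Of 190 counts and median dormancy scores recomputed under alternatives, 11 counts moved by over 1.5 times. Without zooids among the other stages, the members' median score was 0.40 against 0.70 in *P. zorritensis* and 0.16 against 0.31 in *C. lepadiformis*. Of 484 log2 differences of single genes 459 kept their direction and side of 2-fold. Part of this share was fixed beforehand, because other minimums do not alter a log2 difference. No member isoform had a mean below 1, and a gene with 1 isoform equals its transcript of the pair table. No called difference changed sign. With a 1.5-fold threshold, dormant against stolon had 2 lower in *P. zorritensis* and 1 higher in *C. lepadiformis*, and dormant against pre-bud 2 higher and 2 lower in *C. lepadiformis*. With 3-fold, 1 was higher in dormant *P. zorritensis* than in pre-buds, and in *C. lepadiformis* 0 were lower in dormant than in stolons, 0 higher in dormant than in pre-buds and 1 lower in germinating than in dormant tissue. With the transcript of the pair table alone, 2 were lower in dormant tissue than in pre-buds of *C. lepadiformis* (fos and NR4A3). Over the whole Trinity component, chosen after seeing the data, 2 were lower in dormant *C. lepadiformis* than in stolons and 1 than in pre-buds, since the ATF7 component includes a neighbouring gene. Under that setting the stolon was highest for 3 instead of 4 members of *C. lepadiformis*. With the NR4A tree transcript, also chosen later, the log2 difference of dormant against stolon was -3.49. The difference of NR4A3 between dormant tissue and pre-buds of *P. zorritensis* was 0.91 with a pseudocount of 5. Once stages were rescaled, NPAS4 of winter buds against zooids passed 2-fold as a ratio of sums. Its log2 difference, which includes the pseudocount, was 0.97. No paired analysis was possible because only means per stage were used, and no replicate could be left out for the same reason.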
